A study of Gallus gallus with 10 samples.

Results

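PPARG, C/EBP alpha and their relatives are the transcription factors that turn a progenitor into a fat cell and keep its lipid genes on. Their probe sets were followed bird by bird in the abdominal fat of chickens of a fat line and a lean line. The members were PPARG, PPARA and PPARD, the C/EBP genes CEBPA, CEBPB, CEBPD, CEBPG and CEBPZ, SREBF1 (which encodes SREBP1) and NR1H3 (which encodes LXR alpha). Every probe set that the array's annotation gives to 1 of these symbols alone was taken, whatever its signal. This found 19 probe sets of 9 of the 10 genes, out of 38439 probe sets tested for 13009 named genes. CEBPD had no probe set in this annotation and was not analysed here. Where a gene had several probe sets, they are numbered from the highest mean signal down (PPARG 1, PPARG 2, PPARG 3), and the plots give the array's own names beside these numbers.

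The fat line group held 5 male birds and the lean line group another 5 male birds, all of Arbor Acres origin, 49 days (7 weeks) old and on the same corn and soybean feed, with 1 Affymetrix GeneChip Chicken Genome Array per bird. The study weighed the birds after a fast and then slaughtered them. The lines had been selected in opposite directions for the percentage of abdominal fat and for plasma very low density lipoprotein, and the birds measured were those at the extremes of abdominal fat percentage. Selection history and fatness therefore cannot be told apart in these birds. The tissue was whole abdominal fat, so fewer cells of a type and less RNA per cell cannot be told apart either.

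In textbook accounts, worked out mostly in mice, C/EBP beta and C/EBP delta come on first in a preadipocyte and switch on PPARG and C/EBP alpha, which then maintain each other. PPARG binds DNA as a pair with a retinoid X receptor and is the master regulator of the fat cell, with genes for lipid uptake and storage among its targets. SREBP1, released from the endoplasmic reticulum by SCAP and held back by the INSIG proteins, drives fatty acid synthesis, and LXR alpha, a receptor for oxysterols, stands above it.

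Signals were deposited on a linear scale, scaled to a common trimmed mean, without detection calls, and were compared as log2 values. The sum of all signals was between 27714342.9 and 29936208.4 per array. The array of fat line bird 4 stood apart, with a median signal of 276.2 against 185.8 to 234.2 on the other 9, and a mean correlation of 0.821 with the birds of its own line. Arrays were scanned on 3 days, with fat line bird 5 and lean line bird 4 on day 1, lean line birds 1 and 2 on day 2, and fat line birds 1 to 4 with lean line birds 3 and 5 on day 3. The 3′ to 5′ signal ratio of beta-actin, a sign of RNA quality, was 1.55 to 2.66 in fat line birds and 1.69 to 3.09 in lean line birds. By scan day it was 1.55 to 2.05 on day 3 and 2.28 to 3.09 on days 1 and 2. The arrays of day 3 were also read on another scanner than those of days 1 and 2. Among marker lists for cell types, the 7 fat cell genes, PPARG among them, had a median log2 fold of 0.07 (fat line over lean line). Single genes ran from -0.58 for ADIPOQ to 0.61 for PPARG. The summed signals of the 7 were 149984 to 178868 in fat line birds and 147355 to 163525 in lean line birds. The samples were not fat cells alone. The median log2 fold was -2.33 over 8 skeletal muscle genes, -1.18 over 6 smooth muscle genes, -1.75 over 9 liver genes and -1.35 over 6 intestine genes, with a log2 fold below 0 for each of these genes, except that PVALB of skeletal muscle came out above 0 when arrays were scaled by quantiles or to the same median. It was -0.09 over 8 macrophage genes (0.0072 with arrays scaled to the same median), -0.11 over 7 progenitor genes and -0.22 over 5 T cell genes. No marker was listed at 0.

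Most of the factors gave clear signals in this tissue. Because there were no detection calls, the 683 probe sets named after viral coding sequences were used as a gauge of low signals. Their mean signals had a median of 45.0 and a 95th percentile of 184. Held against the 95th percentile of the viral probe sets on the same array, 12 of the 19 member probe sets were over it in every bird, and these covered 8 genes. The exception was SREBF1, whose 3 probe sets were over it in no bird. PPARA 3 was over it in no bird either.

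**Figure D1:**
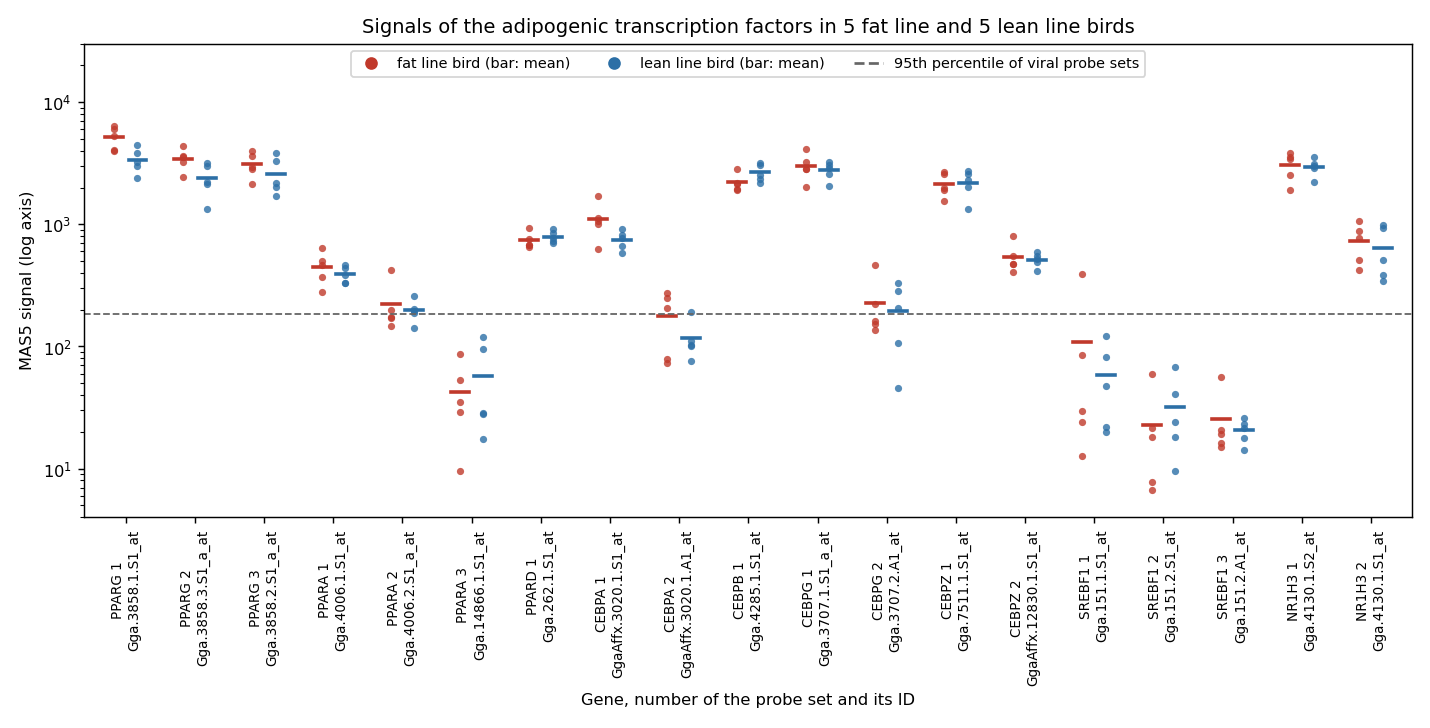
MAS5 signal (log axis) of each of the 19 probe sets, with 1 point per bird. Fat line birds are to the left of lean line birds. Bars mark each line's mean, and the dashed line is at 184, the 95th percentile of the mean signals of the viral probe sets. The first probe sets of PPARG, CEBPB, CEBPG, CEBPZ and NR1H3 are far above that line in every bird, and the SREBF1 means are below it. On SREBF1 1 fat line bird 4 (392.5) is above the dashed line but under the viral 95th percentile of its own array (423).

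Between the lines, PPARG and CEBPA were the members with the highest signal in fat line birds relative to lean line birds, yet no member passed the test across all probe sets. With limma and Benjamini-Hochberg adjustment, 0 of the 19 had an adjusted p under 0.05, as did 0 of the 38439 tested (0.0%), and SAM called 0 as well. The study's own SAM screen at the same delta did call genes, with printed q-values that were all above the threshold of 0.05 used here. It used only probe sets called present and left out a fat line bird, while here all probe sets and all birds entered. At an unadjusted p under 0.05, 3 of the 19 passed and all 3 were higher in the fat line (2 of PPARG, 1 of CEBPA), where 3.38% of all probe sets were higher and 3.99% lower (2835 probe sets in all, 7.38%). The number of the 19 that passed depended on the processing and was 1 to 5 in the alternatives described below. With each array scaled to the same median, higher calls were 62.0% of all unadjusted calls, with quantile normalization 56.5%, and in the values as deposited 45.9%. The log2 fold was above 0 for 14 of the 19, against 44.3% of all probe sets (15 and 54.2% with arrays scaled to the same median, 13 and 49.8% with quantile normalization), and its median was 0.11 for the members and -0.05 for all. Lines did not overlap at 1.39% of all probe sets and at 0 of the 19.

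**Figure D2:**
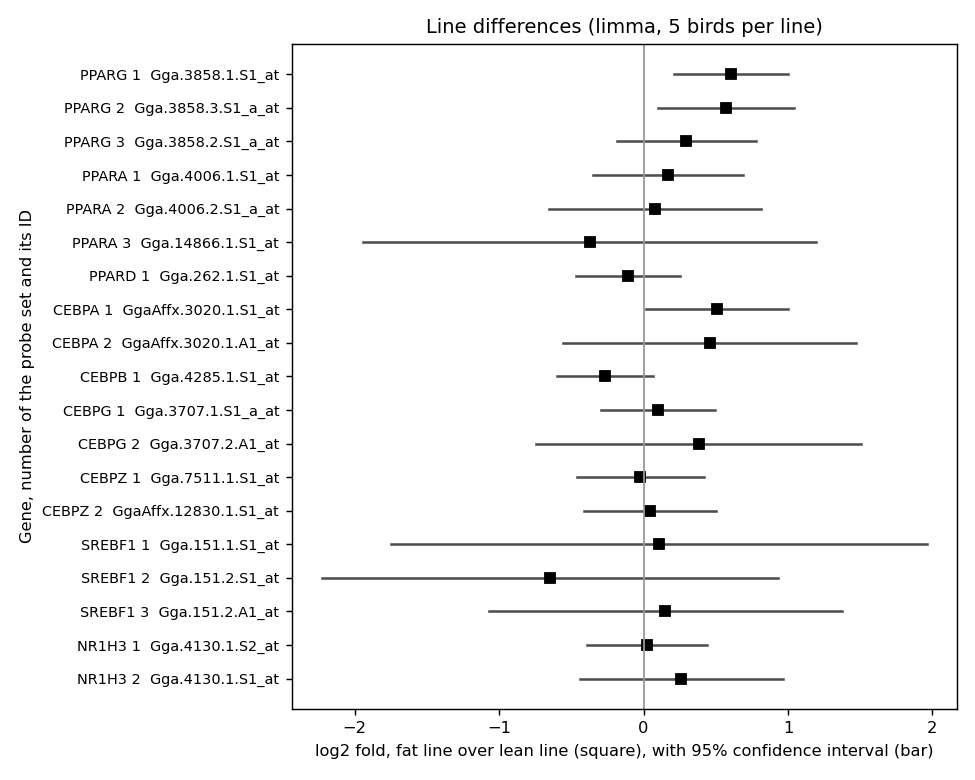
Log2 fold of the fat line over the lean line (squares) with its 95% confidence interval (bars) for each of the 19 probe sets, from limma with 5 birds per line. Only 2 PPARG probe sets and 1 CEBPA probe set have intervals that leave out 0, and the intervals of SREBF1 reach from below -1 to near or above 1.

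PPARG, the nuclear receptor at the head of the fat cell programme, had 3 probe sets. On PPARG 1 fat line birds 1 to 5 had signals of 6012.6, 4003.3, 6405.6, 5283.2 and 4038.3, against 4469.0, 3232.0, 3019.4, 3816.0 and 2411.0 in lean line birds 1 to 5. The lines overlapped through lean line bird 1 alone, which lay above fat line birds 2 and 5. Fat line birds 1, 3 and 4 were over every lean line bird. The means were 5149 ± 1106 and 3389 ± 785 (SD, n = 5 each), a log2 fold of 0.61 ± 0.19 (SE) or 1.52-fold (95% interval 1.16 to 2.004). Few labellings of the birds gave as large a difference in an exact permutation test of this probe set alone (two-sided p = 0.0317, where 0.0079 is the smallest possible). After adjustment over all probe sets the difference was not past the threshold (limma, adjusted p = 0.458). Its p ranked 434 among the 38439.

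The other PPARG probe sets showed the same highest and lowest birds. On PPARG 2 the fat line birds had 3619.3, 2432.5, 4412.2, 3589.0 and 3228.0, against 3033.8, 3157.9, 2137.9, 2239.9 and 1346.6 in lean line birds. Only fat line bird 2 fell within the lean line range, and the log2 fold was 0.57 ± 0.22 (limma, adjusted p = 0.588, exact permutation p = 0.0476). On PPARG 3 the signals were 3645.0, 2846.8, 4013.3, 2945.4 and 2152.6 in fat line birds, against 3809.8, 3304.3, 2035.4, 2170.6 and 1706.5 in lean line birds. Here lean line birds 1 and 2 stood among the highest fat line birds and the log2 fold was 0.30 ± 0.23 (limma, adjusted p = 0.819, exact permutation p = 0.317). All 3 probe sets were highest in fat line bird 3 and lowest in lean line bird 5.

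The PPARG difference was not of 1 size on each scan day, and a difference between days was not tested. The scanner and the beta-actin ratio also differed between day 3 and the other days. Among the 6 arrays of day 3 the lines did not overlap on any of the 3 probe sets, as at 6.19% of all probe sets with the fat line higher and 6.85% with it lower. On PPARG 1 the 4 fat line birds had 4003.3 to 6405.6 against 2411.0 and 3019.4 in the 2 lean line birds, a log2 difference of 0.99. On day 1 the single fat line bird had 4038.3 and the single lean line bird 3816.0, a log2 difference of 0.082, while it was 0.53 on PPARG 2 and -0.012 on PPARG 3. The array of that lean line bird, number 4, was the only one whose header recorded a stop in the wash. Day 2 held lean line birds only, and 1 of them had the highest lean line signal. With scan day as a block the log2 fold of PPARG 1 was 0.74 (limma, adjusted p = 0.502). For PPARG 3 and PPARG 2 it came to 0.61 and 0.88 with scan day as a block and to 0.84 and 1.02 on day 3 alone, with no adjusted p under 0.05.

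The lean line birds of day 3 were also those with the most RNA of skeletal muscle genes. The summed signal of the 8 skeletal muscle markers was 58149 in lean line bird 3 and 122198 in lean line bird 5. It was 1818 to 9779 in the other 3 lean line birds. In the fat line it was 34084 in bird 2 and 1022 to 1652 in the other birds. Fat line bird 2, also scanned on day 3, had the lowest fat line signal on PPARG 1 (4003.3) and PPARG 2 (2432.5). On PPARG 3 the lowest was fat line bird 5 (2152.6, against 2846.8 in bird 2). Smooth muscle markers were spread otherwise, with summed signals of 12761 and 11695 in lean line birds 3 and 5, and their highest sums were 53242 in lean line bird 4 and 29021 in lean line bird 1. The summed signal of the 6 fat cell markers other than PPARG was 145946 to 172856 in fat line birds and 144336 to 160293 in lean line birds. It was 144336 in lean line bird 3 and 150465 in lean line bird 5. FABP4, the brightest of the 6, weighs most in this sum. Of the 6, only LPL had its lowest signals in both of these birds (18393.3 and 20949.7). The part of skeletal muscle RNA in the PPARG difference was not tested. Without lean line bird 5 the log2 fold of PPARG 1 was 0.49, and without lean line bird 3 it was 0.57.

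C/EBP alpha, the partner that PPARG induces and that gives the fat cell its response to insulin, is encoded by CEBPA. On CEBPA 1 fat line birds 1 to 5 had 1066.7, 1118.7, 1716.1, 1012.3 and 632.3, against 914.4, 780.5, 811.4, 582.9 and 661.9 in lean line birds. Fat line birds 1 to 4 were over every lean line bird, and fat line bird 5 was below all but lean line bird 4. The means were 1109 ± 390 and 750 ± 130 (SD, n = 5 each), and the log2 fold of 0.51 ± 0.23 was not past the threshold (limma, adjusted p = 0.671, exact permutation p = 0.0873). Without fat line bird 3, the highest bird for CEBPA as for PPARG, it was 0.34. Within the days it was 0.71 on day 3 and 0.12 on day 1. The dimmer CEBPA 2 had 72.8 to 272.7 in fat line birds and 75.6 to 192.2 in lean line birds, with a log2 fold of 0.46 ± 0.48 (limma, adjusted p = 0.879) and only 3 birds over the gauge.

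**Figure D3:**
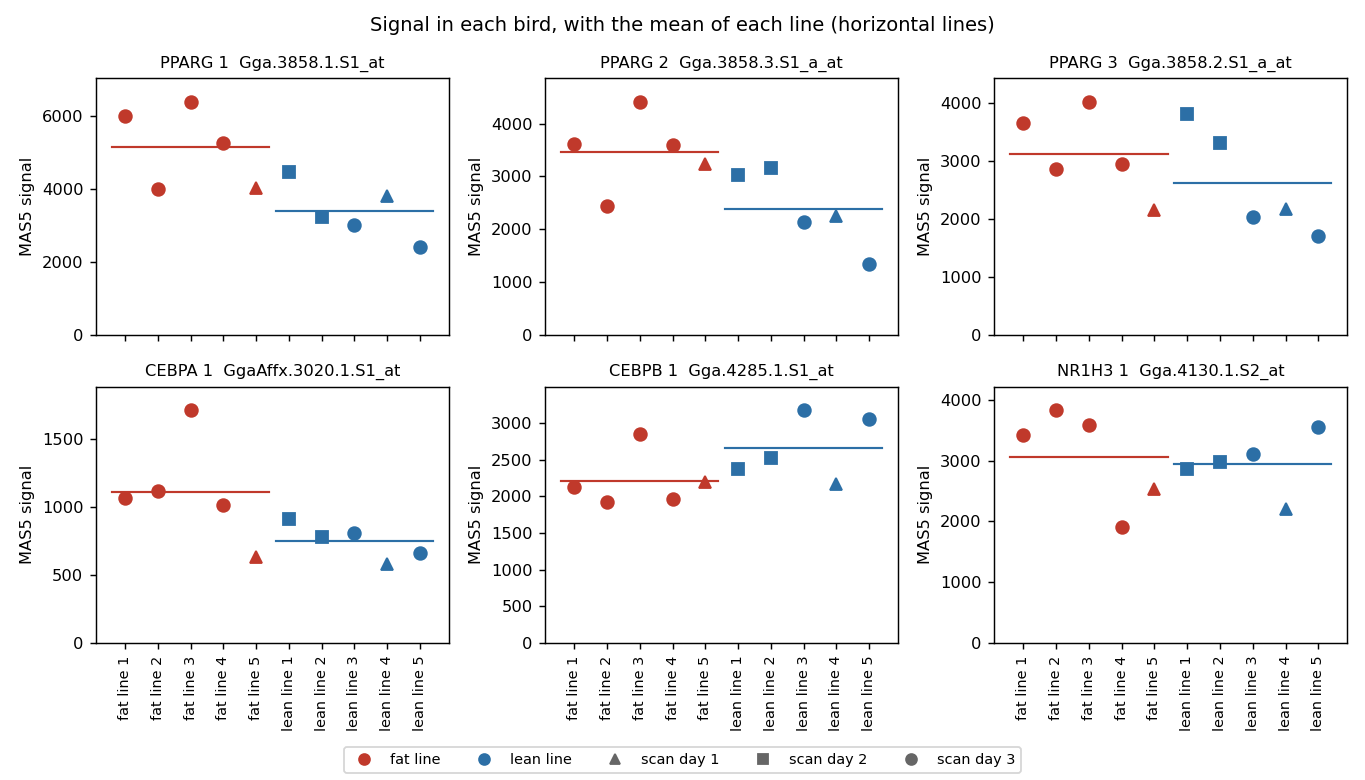
MAS5 signal in each bird for the 3 PPARG probe sets and for the brightest probe set of CEBPA, CEBPB and NR1H3, with fat line birds left of lean line birds, point shape for the scan day and a horizontal line at each line's mean. Fat line bird 3 is the highest bird for PPARG and CEBPA, and the lean line birds of day 3 have the highest CEBPB signals.

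C/EBP beta, encoded by CEBPB and among the first factors of adipogenesis, had a single probe set that leaned the other way. Its signals were 2126.1, 1918.8, 2852.7, 1966.1 and 2193.2 in fat line birds, against 2372.3, 2530.5, 3181.1, 2173.4 and 3062.1 in lean line birds. Fat line birds 1, 2 and 4 were below every lean line bird, and lean line birds 3 and 5 were above every fat line bird. The log2 fold was -0.27 ± 0.16 (limma, adjusted p = 0.753, exact permutation p = 0.119). It was -0.51 on scan day 3 and 0.013 on day 1.

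The remaining C/EBP genes showed no line difference with an unadjusted p under 0.05 (limma). C/EBP gamma, which forms pairs with other C/EBP proteins and lacks an activation domain of its own, is encoded by CEBPG. In RefSeq it lies next to CEBPA, with 0 protein-coding genes between them. On CEBPG 1 signals were 2004.3 to 4103.9 in fat line birds and 2066.8 to 3252.6 in lean line birds, a log2 fold of 0.099 (95% interval -0.30 to 0.49, limma). The lowest and the highest bird, numbers 4 and 5, were both of the fat line. The dimmer CEBPG 2 had 137.7 to 461.7 in fat line birds and 45.5 to 329.3 in lean line birds, with a log2 fold of 0.38 (-0.74 to 1.51). Only 5 birds were over the gauge on it, and the study listed this probe set as not expressed.

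CEBPZ carries the family's name but is not a leucine zipper protein of the C/EBP kind. CEBPZ 1 had 1550.7 to 2685.8 in fat line birds and 1338.4 to 2746.7 in lean line birds, and the log2 fold was -0.024 (95% interval -0.46 to 0.42, limma). Both extremes were lean line birds. CEBPZ 2 had 410.0 to 810.2 in fat line birds and 416.3 to 596.8 in lean line birds, with a log2 fold of 0.045 (-0.41 to 0.50). The fat line's highest value was that of bird 4, and without it the log2 fold was -0.11.

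The other PPARs had no line difference with an unadjusted p under 0.05 either (limma). PPARA, the receptor that turns on fatty acid oxidation in fasting, had on its first probe set, PPARA 1, 370.7, 282.0, 499.2, 638.2 and 461.4 in fat line birds, against 387.5, 466.8, 438.1, 329.5 and 328.3 in lean line birds. Both the lowest and the highest signal belonged to fat line birds, 2 and 4. The log2 fold was 0.17 ± 0.24 (limma, adjusted p = 0.922) and was 0.029 without fat line bird 4.

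On PPARA 2 fat line bird 4 had 425.1 while the other fat line birds had 146.2 to 197.1 and the lean line birds 141.7 to 259.1. Its log2 fold was 0.080 ± 0.35 with that bird and -0.18 without it (limma). On PPARA 3 the signals were 9.5 to 86.0 in fat line birds and 17.4 to 118.5 in lean line birds, and 46.3% of the viral probe sets had as high a mean. PPARD, the PPAR found in most tissues, had 939.8, 679.8, 758.2, 682.4 and 647.7 in fat line birds, against 698.8, 917.4, 725.4, 853.9 and 779.3 in lean line birds. Fat line birds 2, 4 and 5 were below every lean line bird while fat line bird 1 was above all of them, and the log2 fold was -0.11 ± 0.17 (limma, adjusted p = 0.928).

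SREBF1 could not be read well on these arrays. The signals of SREBF1 1, its brightest probe set, were 24.2, 12.6, 85.9, 392.5 and 29.9 in fat line birds, against 21.8, 82.6, 122.2, 20.1 and 47.7 in lean line birds. Fat line bird 4 alone was high, on the array whose viral probe sets had a 95th percentile of 423, against 140 to 236 on the other arrays. The log2 fold was 0.11 (95% interval -1.75 to 1.96, limma) and -0.64 without that bird. Signals were 15.1 to 56.5 in fat line birds and 14.1 to 26.1 in lean line birds on SREBF1 3. On SREBF1 2 they were 6.7 to 60.0 in fat line birds and 9.6 to 68.3 in lean line birds. The viral probe sets with a mean at least as high were 23.7%, 73.1% and 67.6% for SREBF1 1, SREBF1 3 and SREBF1 2, so a line difference of SREBF1 RNA was not detectable with these probe sets. The study listed the probe set SREBF1 1 as not expressed.

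NR1H3, the oxysterol receptor, had a bright probe set, NR1H3 1, with 3418.6, 3834.7, 3580.2, 1906.4 and 2533.4 in fat line birds, against 2867.7, 2979.6, 3108.0, 2206.4 and 3551.3 in lean line birds. The lowest signal and the highest were both in the fat line, in birds 4 and 2. The means were 3055 ± 807 and 2943 ± 487 (SD, n = 5 each), and the log2 fold was 0.025 (95% interval -0.39 to 0.44, limma). NR1H3 2 had 425.7 to 1068.9 in fat line birds and 343.4 to 997.3 in lean line birds, with a log2 fold of 0.26 ± 0.33 that was -0.31 on scan day 3 alone.

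The partners, targets and controllers of the factors were described from 7 lists, each gene by its brightest probe set, and again none of their genes had an adjusted p under 0.05. Among the PPAR partners, 13 genes were measured, 5 with a log2 fold above 0 and 8 below (median -0.030, and 0.067 with arrays scaled to the same median). RXRA and RXRG, of the retinoid X receptors with which every PPAR pairs, were the 2 that had an unadjusted p under 0.05. Both were higher in the fat line, where 3.38% of all probe sets were higher and 3.99% lower. The third receptor, RXRB, had no probe set of its symbol alone. RXRA had 456.4, 351.6, 342.5, 644.4 and 500.6 in fat line birds, against 386.7, 151.0, 123.8, 363.0 and 239.1 in lean line birds. Fat line birds 1, 4 and 5 were over every lean line bird, and the log2 fold was 0.96 ± 0.34 (limma, adjusted p = 0.546). Lean line birds 2 and 3 were under the viral 95th percentile of their arrays (233 and 236). RXRG had a log2 fold of 0.90 ± 0.42 (limma, adjusted p = 0.677). Its means were 366 ± 150 and 212 ± 113 (SD, n = 5 each) in the fat and the lean line. Fat line bird 4 (254.0) and lean line birds 1 and 4 (85.7 and 100.2) were under that percentile on RXRG. Among coactivators the log2 fold was -0.55 for NCOA3, -0.23 for MED1 and -0.18 for PPARGC1A.

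Of the genes that PPARG and C/EBP alpha are known to turn on in fat cells, 16 were measured, 9 with a log2 fold above 0 and 7 below, and the median was 0.043. Among all probe sets 44.3% had a log2 fold above 0. With arrays scaled to the same median, 11 were above 0 and 5 below (median 0.14, and 54.2% of all probe sets above 0). Quantile normalization also gave 11 and 5 (median 0.13, and 49.8% of all above 0). At an unadjusted p under 0.05, 4 of the 16 were higher and 1 was lower, where 3.38% of all probe sets were higher and 3.99% lower. ACSL1, which activates fatty acids for storage, had 19155.9, 19886.8, 21692.5, 14465.5 and 12246.7 in fat line birds, against 11480.1, 12068.6, 7371.7, 10024.6 and 10870.9 in lean line birds. CD36, a fatty acid transporter, had 35622.9, 33802.8, 31209.1, 26935.0 and 32948.7 in fat line birds, against 25590.6, 25290.8, 22475.3, 20873.4 and 26310.7 in lean line birds. In both genes every fat line bird was over every lean line bird, as at 1.39% of all probe sets in either direction. The log2 folds were 0.74 ± 0.18 for ACSL1 and 0.41 ± 0.14 for CD36 (limma, adjusted p = 0.319 and 0.518).

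Among the other targets, ADIPOQ, which encodes the fat cell hormone adiponectin, had 10739.2, 5748.9, 7773.0, 5331.4 and 11064.8 in fat line birds, against 12919.7, 9870.2, 10784.0, 12729.2 and 12019.1 in lean line birds. Fat line birds 2, 3 and 4 were below every lean line bird, and the log2 fold was -0.58 ± 0.20 (limma, adjusted p = 0.536). CIDEC, a lipid droplet protein, had a log2 fold of 0.40 and LPL, which frees fatty acids from lipoproteins, one of 0.31 (limma, adjusted p = 0.621 and 0.666). FABP4, the fatty acid carrier of the fat cell, had -0.029. When all probe sets of these genes were taken, the median log2 fold was 0.27.

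**Figure D4:**
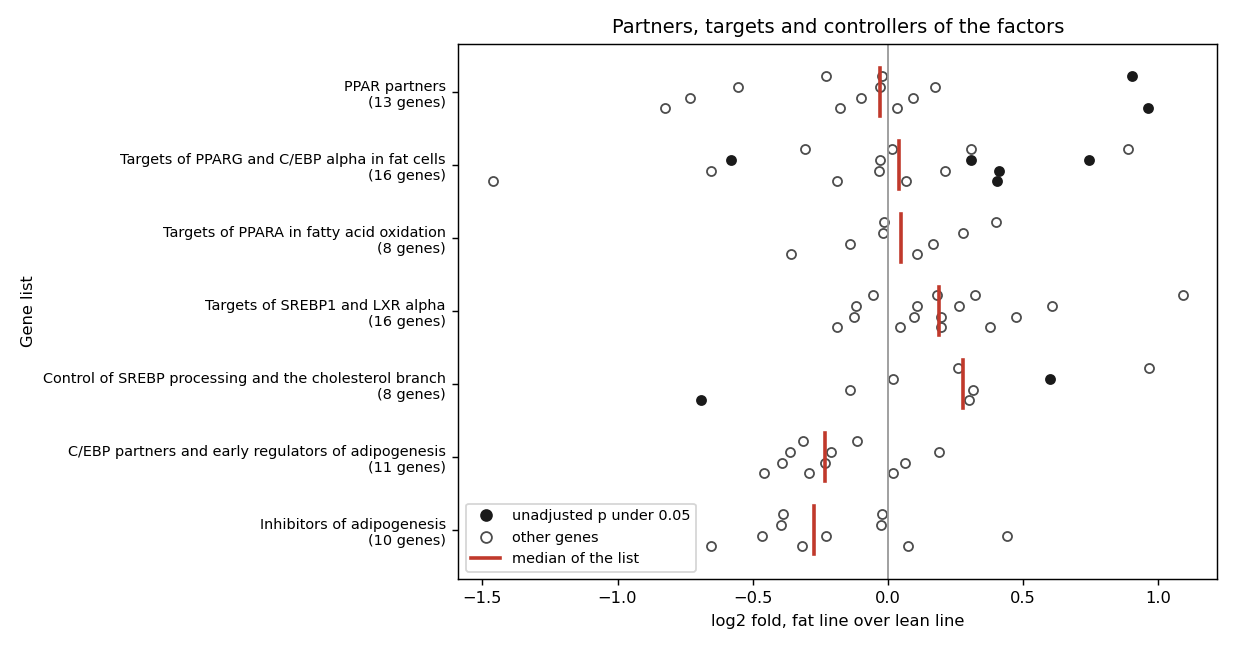
Log2 fold of the fat line over the lean line for each gene of the 7 lists, with filled points for an unadjusted p under 0.05 and a bar at each list's median. The lists of SREBP1 and LXR alpha targets and of SREBP control have medians of 0.19 and 0.28, and those of the C/EBP partners and the inhibitors of adipogenesis have medians of -0.23 and -0.27.

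The targets of PPARA in fatty acid oxidation had log2 folds above 0 for 4 genes and below 0 for 4 (median 0.048), or 6 and 2 with arrays scaled to the same median. The lowest p there was that of HADHB, a subunit of the mitochondrial trifunctional protein, with a log2 fold of 0.28, followed by ACADL with 0.17, CPT1A with 0.40 and SLC25A20 with -0.14. Of the targets of SREBP1 and LXR alpha, 12 of 16 had a log2 fold above 0, against 44.3% of all probe sets (13 of 16 and 54.2% with arrays scaled to the same median), and none had an unadjusted p under 0.05. SCD, the stearoyl-CoA desaturase, had 7488.7, 5511.9, 4402.0, 5406.8 and 3399.6 in fat line birds, against 1523.4, 6285.1, 492.4, 2347.4 and 6833.4 in lean line birds. The lean line spanned a wide range on both sides of most fat line birds, and the log2 fold was 1.09 ± 0.54 (limma, adjusted p = 0.703). THRSP (Spot 14) had a log2 fold of 0.32, ACACB 0.48, ACACA 0.61, ABCA1 0.38 and FASN, the fatty acid synthase, 0.20.

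The list of SREBP release and the cholesterol branch held 8 measured genes (median 0.28). At an unadjusted p under 0.05, 1 was higher and 1 lower, where 3.38% of all probe sets were higher and 3.99% lower. The higher gene governs release and the lower gene makes cholesterol. INSIG2, which holds SREBP in the endoplasmic reticulum, had 6121.1, 7064.1, 7377.8, 3877.7 and 4459.6 in fat line birds, against 4016.0, 4679.4, 2323.9, 3586.6 and 4369.8 in lean line birds. Fat line birds 1 to 3 were above every lean line bird, and the log2 fold was 0.60 ± 0.22 (limma, adjusted p = 0.558). HMGCS1, a cholesterol synthesis enzyme, had one of -0.69 ± 0.30 (limma, adjusted p = 0.655). The log2 fold was 0.31 for INSIG1, 0.30 for SCAP and 0.019 for SREBF2, which encodes the SREBP of the cholesterol branch.

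C/EBP partners and early regulators of adipogenesis mostly had a log2 fold below 0, 8 of 11, and so did 8 of 10 inhibitors of adipogenesis (6 of 10 with arrays scaled to the same median). Among all probe sets only 44.3% had a log2 fold above 0 (54.2% with that scaling), so lower was the commoner direction in the deposited values at large. The medians of the partners and the inhibitors were -0.23 and -0.27, against -0.05 for all probe sets, and none of the genes had an unadjusted p under 0.05. Of the first list, NR2F2 had a log2 fold of -0.31, the glucocorticoid receptor NR3C1 -0.46, ATF4 0.19 and EBF2 -0.21. Of the inhibitors, TGFB1 had -0.46, SIRT1 -0.39, TCF7L2 -0.40 and DLK1, the preadipocyte factor, -0.65.

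Across the 10 birds, PPARG followed LPL and, less firmly, CEBPA. Log2 signals of 7 pairs of genes were correlated, with a permutation p adjusted over the 7. For PPARG and LPL, Pearson's r was 0.80 (permutation p = 0.0055, adjusted 0.0384) and Spearman's rho 0.77 (permutation p = 0.0125, adjusted 0.0877). With each line centred on its mean r was 0.58 (permutation, adjusted p = 0.258). On scan day 3 r was 0.87 over 6 birds (exact permutation p = 0.0319), and without fat line bird 3 and lean line bird 5, the birds farthest from the median of PPARG, it was 0.82 (exact permutation p = 0.0126). The other days held too few birds. With 1 bird left out, r was 0.75 to 0.85 and its adjusted p stayed under 0.05 only without lean line bird 1 or lean line bird 2.

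For PPARG and CEBPA, r was 0.72 (permutation p = 0.0184, adjusted 0.0646) and rho 0.65 (permutation p = 0.0481, adjusted 0.168). It was 0.53 with each line centred (permutation, adjusted p = 0.258), 0.86 on scan day 3 (exact permutation p = 0.0208) and 0.51 without fat line bird 3 and lean line bird 5 (exact permutation p = 0.200), so the relation rested in part on those birds. For PPARA and CPT1A, the gate of mitochondrial fatty acid oxidation, r was -0.63 (permutation, adjusted p = 0.123) and rho -0.55 (adjusted 0.245). Neither was past the threshold. Centred within lines r was -0.77 (permutation, adjusted p = 0.0738), and on scan day 3 it was -0.93 (exact permutation p = 0.0125). Without fat line birds 2 and 4, both scanned on day 3, it was -0.38 (exact permutation p = 0.361). For the other 4 pairs r was -0.37 (PPARG and FABP4), -0.26 (SREBF1 and FASN), -0.29 (NR1H3 and ABCA1) and 0.25 (CEBPA and PPARA), with adjusted p of 0.486 for each (permutation). Their rho values were -0.39, -0.08, -0.10 and 0.16. The SREBF1 signal used there, SREBF1 1, was over the viral 95th percentile in no bird.

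**Figure D5:**
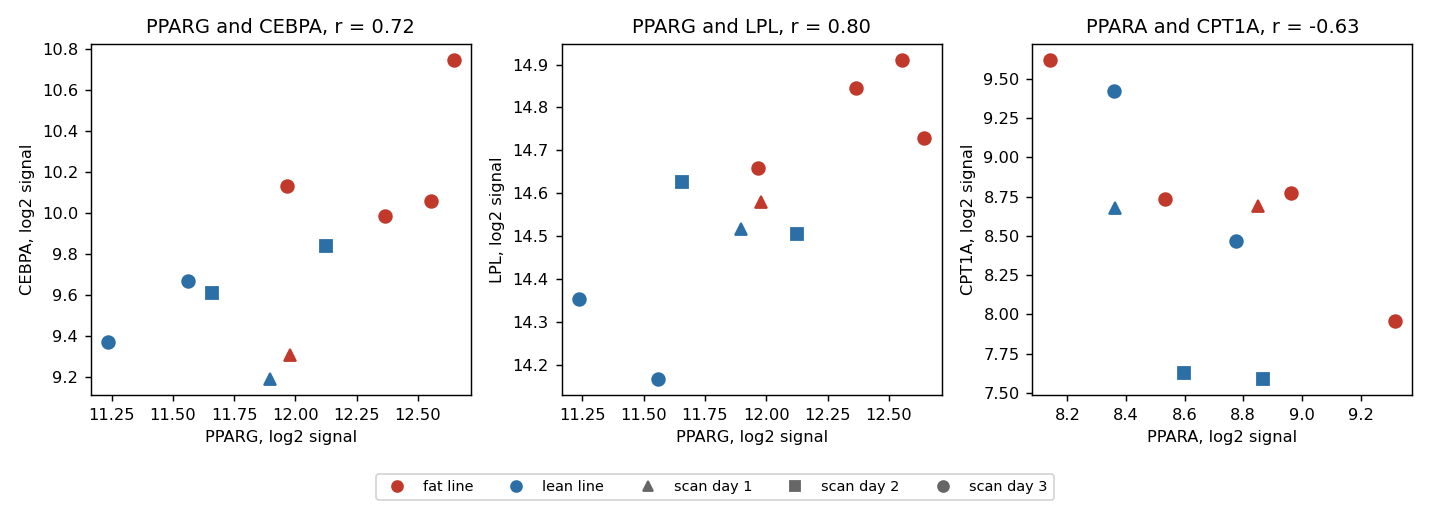
Log2 signals of PPARG and CEBPA, PPARG and LPL, and PPARA and CPT1A in each bird, with colour for the line and point shape for the scan day. Lean line birds 3 and 5 have the lowest PPARG and LPL signals, and fat line birds 2 and 4 lie at the ends of the PPARA range.

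The genes whose log2 signals were most like those of each factor over the 10 birds were found among 20754 to 20757 probe sets with 1 symbol and a mean signal of at least 100. Lines, scan days and arrays are shared by all of them, so these values only describe the birds. For PPARG they were NALCN (r = 0.96), BMPER (0.91) and KIF5B (0.90), and 0.318% of the probe sets had an r of at least 0.8. For CEBPA they were FAM107B (0.97), ERO1B (0.93) and CUL3 (0.91), with 0.366% at that r. CEBPB was nearest to ARHGEF7L (0.91), NOL10 (0.91) and NRP2 (0.88), and NR1H3 to AP1S2 (0.97), GAPVD1 (0.96) and FAR1 (0.96). SREBF1, whose signal was low, was nearest to B3GALT2 (0.94), SP2 (0.94) and F2R (0.92).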

How the data were processed

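Intensities deposited by the authors were MAS5 signals on a linear scale, 1 array per bird, which they had scaled to a trimmed mean of 500.1 (2% cut from each end, checked on the values). The study's methods name Affymetrix Microarray Suite and a normalization to total fluorescence. Precision is set by the number of arrays. Of 38535 probe sets, 96 controls were left out. Symbols came from the platform annotation, in which 27168 probe sets had 1 symbol, 177 had several and 11094 had none. The Entrez IDs of all 19 member probe sets had the same symbol in the RefSeq table. Members and lists were chosen with earlier results of these data known.

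Log2 signals were compared with limma 3.58.1 in R 4.3.3 (lmFit, then eBayes with trend). Tests were two-sided, p was adjusted over 38439 probe sets by Benjamini-Hochberg and the threshold was 0.05. Each member was also tested by exact permutation over 252 labellings. The labels number the birds as biological replicates. Correlations used 100000 resamples, or exact enumeration under 10 birds (Python 3.11.15, numpy 2.4.6, scipy 1.17.1). SAM used a delta of 0.8 and 100 permutations. Scan days were read from the array headers. The headers name no wash run. Arrays were grouped into wash runs by the hybridization times in the headers, where a gap over 1 hour started a new run. Scripts were tested on simulated data.

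The genes named were every member probe set, up to 4 genes of smallest p per list, a set of genes chosen by name (FABP4, LPL, ADIPOQ, FASN, ACACA, SCD, THRSP, RXRA, RXRG, PPARGC1A, SREBF2, INSIG1 and MLXIPL, of which MLXIPL had no probe set in the annotation), the genes of the correlated pairs and the 3 nearest of 5 factors. For a gene of a list, the probe set with the brightest mean log2 value stood in. Of 8 pairs planned, the pair with CEBPD could not be computed.

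The alternatives tried were to normalize by quantiles, to give every array the same median, to keep only the brighter probe sets, to add 50 before taking logs, to raise signals under 100 to that value, and to drop the intensity trend. The replicate number, the scan day and the wash run each served as a block in turn, and scan day 3 was fitted by itself. SAM, a t-test of equal variances on every probe set, and fits without each bird were also run.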

Additional observations from a re-analysis of the deposited data

Results flagged for a closer look

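Of 38 sets of 5 log2 signals (each member probe set in each line), 2 held a bird far from the others of its line by Dixon's test, where chance gives about 1 in 20. Both were fat line bird 4, whose array stood apart. The first was PPARA 2, with a signal of 425.1 against 146.2 to 197.1 in the other fat line birds, a gap of 0.720 of the range in log2 signals. The second was SREBF1 3, with 56.5 against 15.1 to 20.8, a gap of 0.757 of the range in log2 signals. The viral probe sets of that array had a 95th percentile of 423, against 140 to 170 on the other fat line arrays, and its part in these values was not tested.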

How the results depend on the processing

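No alternative brought a member past an adjusted p of 0.05, and PPARG 1 kept its direction in each, at 0.49 to 0.99. Log2 folds kept their direction in 366 cases and reversed in 44, none of them past the threshold on either side. With scan day as a block they became 0.045 (CEBPZ 1), -0.16 (SREBF1 1), -0.068 (SREBF1 3), -0.027 (NR1H3 1) and -0.14 (NR1H3 2). With wash run as a block they became 0.033 (SREBF1 2), -0.13 (NR1H3 1) and -0.23 (NR1H3 2). On scan day 3 alone they became 0.012 (PPARD), 0.16 (CEBPZ 1), -0.033 (CEBPZ 2), -0.43 (SREBF1 1), 0.23 (SREBF1 2), -0.0042 (SREBF1 3), -0.11 (NR1H3 1) and -0.31 (NR1H3 2). Quantile normalization gave -0.013 for NR1H3 1, and scaling to the same median 0.072 for CEBPZ 1. Quantile normalization without fat line bird 4 gave 0.045 (PPARA 3), 0.033 (CEBPZ 1), -0.049 (CEBPZ 2) and -0.31 (SREBF1 1). It called 2 probe sets in all, as did the values as deposited without that bird, and 0 were called with all birds by either normalization. The cause of these reversals was not tested.

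With 1 bird left out, the number of probe sets called was 0 to 2 (1 without fat line bird 2, 2 without fat line bird 4 and 2 without lean line bird 5). The ranges that crossed 0 were -0.71 to 0.085 (PPARA 3), -0.18 to 0.20 (PPARA 2), -0.023 to 0.24 (CEBPG 1), -0.062 to 0.65 (CEBPG 2), -0.19 to 0.085 (CEBPZ 1), -0.11 to 0.14 (CEBPZ 2), -0.64 to 0.60 (SREBF1 1), -0.18 to 0.29 (SREBF1 3) and -0.075 to 0.18 (NR1H3 1).

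After adjustment over the 7 pairs, the correlation of PPARG and LPL lost its call at 0.79 with quantile normalization, 0.58 centred within lines, 0.87 on scan day 3 and 0.82 without the 2 birds farthest from the median, and it was 0.75 to 0.85 with 1 bird left out. Without the 2 farthest birds r became 0.55 (SREBF1 and FASN), 0.62 (NR1H3 and ABCA1) and -0.12 (CEBPA and PPARA). SREBF1 1 was over the viral 95th percentile in no bird, so its r is that of a low signal. With 1 bird left out r was -0.38 to 0.010 for SREBF1 and FASN, and -0.47 to 0.086 for NR1H3 and ABCA1. The median log2 fold of the PPARG and C/EBP alpha targets was 0.27 over all their probe sets.

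Birds with the same replicate number had deviations with an r of -0.136 to 0.063, against -0.191 to 0.18 for birds with different numbers. Fat line bird 5 and lean line bird 4, which shared a scan day, had only 0.062. A low r therefore cannot show whether the numbers pair the birds. With the replicate number as a block, 0 probe sets were called and PPARG 1 had 0.61 (limma, adjusted p = 0.416). The limit to the brighter probe sets was not run for 6 dim member probe sets, nor the floor of 100 for 2 of SREBF1 whose signals all lay under it. With 5 birds per line, low signals such as those of SREBF1 and PPARA 3 leave the widest intervals.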
